A study of Mus musculus with 4 samples.

Results

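The histone genes encode the proteins on which DNA is wound into chromatin. Members were the genes whose current RefSeq symbol names a histone of the H1, H2A, H2B, H3 or H4 family and that had a probe set with no other gene symbol. There were 48 such genes among 22180 genes measured, 30 from the histone gene clusters and 18 variants. By family, the clustered genes were 5 H1, 8 H2A, 9 H2B and 8 H4 genes, and the variants were 3 H1, 13 H2A and 2 H2B genes. No H3 gene had a probe set of its own, so H3 was read only from probe sets shared by several genes. The macroH2A genes and Cenpa, which carry other symbols, fall outside the rule, and H1f0 was not analysed here. Of the 48 genes, 2 are pseudogenes, H2af-ps2 and H2bu1-ps.

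The study overexpressed PRDM14, a transcriptional regulator of pluripotency, in mouse E14tg2a embryonic stem cells grown in serum with LIF. The 4 groups used here were wild-type (WT) cells at d0 and d2 and Ctbp1/2 double-knockout (DKO) cells at d0 and d2, with 1 array each. All 4 share the cell line and the medium. How overexpression was begun, which part of Ctbp1 or Ctbp2 is missing and whether the DKO line is 1 clone are not given in the labels, where d0 and d2 probably stand for days. No d2 array without overexpression was analysed, so time in culture and PRDM14 cannot be told apart. Suz12 knockout cells, named in the series title, were not analysed here.

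Core histones H2A, H2B, H3 and H4 form the nucleosome, and H1 binds the linker DNA between nucleosomes. Clustered histone genes are transcribed mainly while DNA is replicated, under the activator NPAT. Their mRNAs are usually not polyadenylated and end in a stem-loop bound by SLBP. Variant genes lie outside the clusters, their mRNAs are mostly polyadenylated, and several of them are known mainly from testis or oocytes. CtBP1 and CtBP2 are corepressors that transcription factors bring to chromatin.

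Promoter stretches are shown for the 4 clustered genes past 2-fold in any comparison and for H2bc1, the divergent neighbour of H2ac1. Each is the 150 bases before the annotated start, from RefSeq on GRCm38.p6, written 5' to 3' on the gene's own strand. Capitals mark the TATA box TATAAA on the gene's strand, the CCAAT box CCAAT on either strand and the octamer ATTTGCAT on either strand. H2ac1 lies at chr13:23934287-23934436, plus strand. H2bc1 lies at chr13:23934157-23934306, minus strand. H2aw lies at chr11:58954535-58954684, plus strand. H4f16 lies at chr6:136804432-136804581, minus strand. H2bc12 lies at chr13:22035671-22035820, plus strand.
H2ac1: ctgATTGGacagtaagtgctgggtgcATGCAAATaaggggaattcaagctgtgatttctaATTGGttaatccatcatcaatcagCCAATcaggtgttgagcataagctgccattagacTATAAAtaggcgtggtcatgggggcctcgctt
H2bc1: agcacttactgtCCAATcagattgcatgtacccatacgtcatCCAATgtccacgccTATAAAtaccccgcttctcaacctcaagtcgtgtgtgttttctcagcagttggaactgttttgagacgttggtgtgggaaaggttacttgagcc
H2aw: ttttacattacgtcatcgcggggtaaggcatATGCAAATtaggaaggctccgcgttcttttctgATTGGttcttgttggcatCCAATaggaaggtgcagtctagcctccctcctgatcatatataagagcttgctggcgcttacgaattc
H4f16: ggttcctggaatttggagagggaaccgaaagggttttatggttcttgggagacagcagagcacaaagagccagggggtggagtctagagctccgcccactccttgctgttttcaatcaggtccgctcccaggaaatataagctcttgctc
H2bc12: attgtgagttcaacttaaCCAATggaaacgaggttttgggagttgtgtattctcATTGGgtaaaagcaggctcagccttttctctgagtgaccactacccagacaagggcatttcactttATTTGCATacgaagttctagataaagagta
The H2ac1 stretch holds a TATA box beginning 32 bases before the start, 3 CCAAT boxes and an octamer. The H2bc1 stretch, which overlaps it on the other strand, holds a TATA box and 2 CCAAT boxes. H2aw and H2bc12 each hold an octamer and 2 CCAAT boxes without TATAAA, and the H4f16 stretch holds none of the 3 motifs.

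RefSeq promoters from 250 bases before to 50 bases after the start were found for 43 of the 48 genes, 26 clustered and 17 variant. Matches to different motifs were counted separately, also where they overlap. TATAAA was present in 14 of 26 clustered promoters (53.8%), 2 of 17 variant promoters (11.8%) and 8.32% of all 32851 promoters in the table. CCAAT was present in 20 of 26 clustered promoters (76.9%), 9 of 17 variant promoters (52.9%) and 37.4% of all promoters. The octamer, a known element of H2B promoters, was present in 9 of 26 clustered promoters (34.6%), 0 of 17 variant promoters and 1.74% of all promoters. Among clustered genes it lay in 5 of 7 H2B and 4 of 7 H2A promoters and in 0 of 7 H4 promoters. CCAAT lay in all 7 H2A, 7 H2B and 5 H1 promoters but in only 1 of 7 H4 promoters. These are letter matches and say nothing of binding. In 2 places members lie head to head on chromosome 13, H2bc1 and H2ac1 with 281 bases between their starts and H2ac12 and H2bc12 with 178 bases.

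Values are the deposited log2 values, whose base is not stated and is taken as log2, so every fold rests on that. With 1 array a group, a difference between arrays has no error and no replicate check. The number of arrays limits the precision. Levels of different probe sets are not ranked against each other. The array medians were 0.354 to 0.412, and 9.50% to 11.4% of values were above 1. The DKO d2 array stood apart. It correlated with the other arrays at no more than 0.727, against up to 0.832 among those. Of the probe sets spanning at most 0.5 on the other arrays, it lay at least 1 beyond them for 332, against 82 to 101 for each other array. The summed level of 10 of 10 embryonic stem cell markers was 3.64 on DKO d2 and 5.40 to 5.97 on the others. On DKO d2 the markers Dppa5a and Esrrb read 0.00 and -0.04, but Zfp42 (0.60) and Utf1 (0.48) had their highest values there. In DKO, 3 of the 10 markers read higher at d2 than at d0. The part of these markers in the results was not tested. Summed levels were 3.92 to 4.87 for 8 of 8 fibroblast markers and 2.39 to 3.94 for 6 of 6 primitive endoderm markers. Prdm14 read 0.34 and 0.42 on WT d0 and d2, and 0.24 and 0.68 on DKO d0 and d2. Ctbp1 read 0.63 and 0.32 in WT and 0.56 and 0.42 in DKO, and Ctbp2 read 0.55 and 0.46 in WT and 0.55 and 0.42 in DKO, so these probe sets do not tell the groups apart. Suz12 read 0.54 and 0.29 in WT and 0.26 and 0.31 in DKO. The comparisons within WT and between genotypes at d0 do not use the DKO d2 array, and the others cannot be computed without it.

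Many histone genes, like many of all genes, read near the bottom of the scale. Of the 48 genes, 41 reached 0.30, the 40th percentile of all values, on at least 1 array, as did 20015 of all 22180 genes. All 48 were kept. All 4 arrays were above that level for 7 clustered genes and 9 variants, a count that was not made over all genes. Values were above 1 on all 4 arrays for 3 clustered genes (H2ac1, H2ac10 and H2bc14) and 2 variants (H2al1m and H2az1). The median clustered gene read 0.22 on WT d2 and 0.27 to 0.30 on the other 3 arrays. The median variant read 0.57 on WT d0 and 0.45 to 0.47 on the other 3 arrays. Over all genes the median was 0.37 on WT d0, 0.38 on WT d2 and DKO d0, and 0.42 on DKO d2. WT d2 was the lowest of the 4 arrays for 18 of 48 histone genes (37.5%) and for 25.2% of all genes. WT d0 was the highest for 16 of 48 (33.3%) and for 21.0% of all genes. Near-identical histone copies can share probes, so the value of 1 gene may hold signal from its paralogues.

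**Figure D1:**
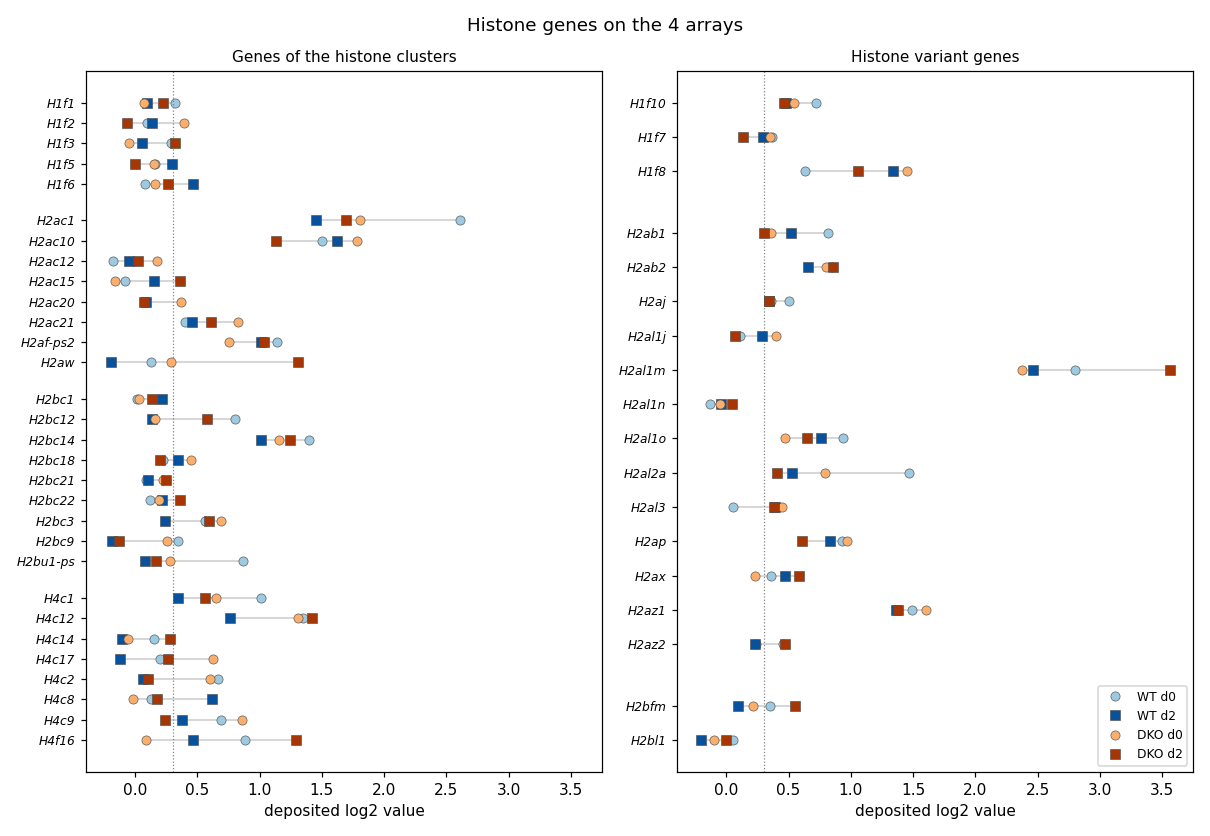
Deposited log2 value (horizontal axis) of the 30 clustered genes (left) and the 18 variants (right) on each of the 4 arrays, 1 point per array, with a dotted line at 0.30, the 40th percentile of all values. Most clustered genes lie below 1 on all arrays, and H2ac1, H2ac10, H2bc14 and the variants H2al1m and H2az1 lie above 1 on all 4.

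In WT cells, 30 of the 48 histone genes with a probe set of their own read lower at d2 than at d0. In such bulk samples fewer cells of a type and less RNA per cell cannot be told apart. The median d2 minus d0 difference was -0.23 over the 30 clustered genes, -0.14 over the 18 variants and 0.01 over all genes. The 54 probe sets shared by several genes had a WT median of 0.04, but they differed by family. The median was -0.19 over the 10 H2A probe sets outside the H2A.L group, with 6 lower at d2. It was -0.10 over the 8 H2B probe sets, with 5 lower, and -0.04 over the 10 of the H2A.L group, with 5 lower. Over the 19 H3 and 5 H4 probe sets it was 0.09 and 0.19, with 5 and 1 lower. Adding the shared probe sets that list histones alone, the H2A.L group aside, moved the clustered median to -0.045. Of the 48 genes, 18 were above 0, against 51.2% of all genes. A 2-fold difference was reached by 1 of 48, H2ac1, against 0.32% of all genes in either direction. At 1.5-fold the count was 8 of 48 (16.7%), 1 higher and 7 lower, against 3.06% of all genes.

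The H4 genes with a probe set of their own showed the most one-sided WT difference among the clustered families. The 5 shared H4 probe sets did not repeat it, since 4 of 5 read higher at d2 in WT, with a median of 0.19. H4 is the core histone that pairs with H3, and its copies encode the same or nearly the same protein. In WT, 7 of 8 H4 genes read lower at d2, with a median of -0.37, and the median was -0.38 under each of the 3 other scalings tried. H4c1 read 1.01 and 0.35 on WT d0 and d2, and 0.65 and 0.56 on DKO d0 and d2. H4c12 read 1.35 and 0.76 in WT and 1.30 and 1.42 in DKO. For both genes the WT d2 array was the lowest of the 4, and for H4c1 both d2 arrays lay below both d0 arrays. H4c2 read 0.66 and 0.07 in WT and 0.60 and 0.10 in DKO, with the same order of days. H4c9 had it too, with 0.69 and 0.38 in WT and 0.86 and 0.24 in DKO. The other 5 H4 genes did not. H4c8 went the other way in WT, from 0.12 to 0.62, and read -0.01 and 0.18 in DKO. H4c14 read 0.15 and -0.11 in WT and -0.05 and 0.28 in DKO, and H4c17 read 0.20 and -0.12 in WT and 0.62 and 0.26 in DKO.

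H4f16 (older symbol Hist4h4, on chromosome 6, apart from the large clusters) read 0.88 and 0.46 in WT and 0.09 and 1.29 in DKO. Its DKO d2 value was the highest of the 4 and its DKO d0 value the lowest. The DKO d2 minus d0 difference of 1.20 ranked 61st from the highest of 22180 genes. A second probe set of H4f16 read -0.10 and 0.12 in WT and 0.11 and 0.33 in DKO. Averaging both probe sets gave a DKO difference of 0.71, below 2-fold. In DKO the median over the 8 H4 genes was 0.01, with 4 above 0, and its sign turned under each of the 3 other scalings, to between -0.06 and -0.02.

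The clustered H2B genes, whose product pairs with H2A, had a WT median of -0.32, with 4 of 9 above 0. H2bc12 read 0.80 and 0.14 in WT and 0.16 and 0.58 in DKO. WT d0 and DKO d2 were thus the high arrays, and the d2 difference was -0.66 in WT and 0.42 in DKO. H2bc9 read 0.34 and -0.19 in WT and 0.26 and -0.13 in DKO, lower on both d2 arrays. The pseudogene H2bu1-ps read 0.87 on WT d0 and 0.08 to 0.28 on the other 3 arrays. H2bc3 read 0.56 and 0.24 in WT and 0.69 and 0.59 in DKO, and H2bc14 read 1.40 and 1.01 in WT and 1.15 and 1.24 in DKO. WT d2 was the lowest array for both. The other 4 H2B genes, H2bc1, H2bc18, H2bc21 and H2bc22, stayed between 0.01 and 0.44 on all 4 arrays. In DKO the H2B median was 0.02 and turned to -0.04 to -0.03 under the other scalings.

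H2ac1, the testis H2A that is also known from oocytes, read 2.61 and 1.45 in WT and 1.80 and 1.69 in DKO. WT d0 was the high array and the other 3 lay close together. The WT difference of -1.16 ranked 15th from the lowest of 22180 genes. Its head-to-head neighbour H2bc1, the testis H2B, read 0.01 and 0.21 in WT and 0.03 and 0.13 in DKO, and did not share the high WT d0 value. H2ac12, the neighbour of H2bc12, read -0.18 and -0.05 in WT and 0.18 and 0.02 in DKO. For the testis genes, 6 of 8 testis germ cell markers were measured, with summed levels of 3.35 to 3.79. Among them the transition protein gene Tnp2 read 1.5 and 1.90 in WT and 1.74 and 2.04 in DKO, and the protamine gene Prm1 read 0.56 and 0.33 in WT and 0.41 and 0.24 in DKO. Their part in the testis histone values was not tested.

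H2aw (older symbol Hist3h2a) encodes a replication-type H2A from a small cluster on chromosome 11. It read 0.13 and -0.19 in WT and 0.29 and 1.31 in DKO. The DKO d2 array alone was high, by 1.02 over DKO d0 and by 1.5 over WT d2. H2ac10 went the other way in DKO, from 1.78 to 1.13, and read 1.5 and 1.62 in WT. H2ac15 read -0.08 and 0.15 in WT and -0.16 and 0.36 in DKO, higher on both d2 arrays. H2af-ps2, H2ac20 and H2ac21 differed by at most 0.29 between days in either genotype. Over the 8 clustered H2A genes the median d2 difference was 0.03 in WT, with 5 above 0, and -0.13 in DKO, with 3 above 0.

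The linker histone genes of the cluster read low throughout, between -0.07 and 0.46. H1f6, the testis H1, read 0.08 and 0.46 in WT and 0.16 and 0.27 in DKO. H1f3 read 0.29 and 0.06 in WT and -0.05 and 0.32 in DKO, and H1f1 read 0.32 and 0.10 in WT and 0.07 and 0.22 in DKO. Both were lower at d2 in WT and higher at d2 in DKO. H1f2 read 0.10 and 0.14 in WT and 0.39 and -0.07 in DKO. H1f5 read 0.16 and 0.30 in WT and 0.15 and -0.00 in DKO. The median over the 5 genes was 0.04 in WT and 0.10 in DKO.

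Among the variants, the oocyte linker histone gene H1f8 read 0.63 and 1.34 in WT and 1.45 and 1.05 in DKO. WT d0 was the low array. H2al1m, of the H2A.L group known from spermatids, read 2.80 and 2.47 in WT and 2.38 and 3.56 in DKO, highest on DKO d2. H2al2a of the same group read 1.47 and 0.52 in WT and 0.79 and 0.41 in DKO, lower at d2 in both genotypes. Its WT difference of -0.94 ranked 41st from the lowest. The other 4 H2A.L genes differed by at most 0.33 between days in either genotype. The H2A.B genes are also known from testis. H2ab1 read 0.81 and 0.52 in WT and 0.36 and 0.30 in DKO, with its second probe set at 0.16 and 0.15 in WT and 0.21 and 0.75 in DKO, so its probe sets differed in DKO. H2ab2 read 0.85 and 0.66 in WT and 0.80 and 0.85 in DKO. H2ap, the H2A.P gene, read 0.93 and 0.83 in WT and 0.97 and 0.61 in DKO. H1f7, a spermatid linker histone gene, was lowest on DKO d2, at 0.14 against 0.30 to 0.36 on the others. The H2B variants, H2bfm and H2bl1, were both lower at d2 in WT and higher at d2 in DKO. H2bfm read 0.35 and 0.09 in WT and 0.21 and 0.55 in DKO, and H2bl1 read 0.05 and -0.21 in WT and -0.10 and -0.00 in DKO.

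The variants made in most cells differed by at most 0.35 between days. H2az1, an H2A.Z gene, read 1.49 and 1.36 in WT and 1.61 and 1.38 in DKO, and H2az2, the other H2A.Z gene, read 0.24 and 0.23 in WT and 0.46 and 0.47 in DKO. H2ax, which is phosphorylated at DNA breaks, read 0.36 and 0.47 in WT and 0.23 and 0.58 in DKO. H2aj read 0.50 on WT d0 and 0.34 to 0.36 on the other 3 arrays, and H1f10 read 0.72 on WT d0 and 0.46 to 0.54 on the others. Outside the rule, the centromeric H3 variant gene Cenpa read 0.64 and 0.67 in WT and 0.82 and 0.76 in DKO. Macroh2a1 read 0.32 and 0.32 in WT and 0.26 and 0.32 in DKO. Macroh2a2 read 0.32 and 0.13 in WT and 0.38 and 0.44 in DKO, and Macroh2a3 read 1.89 and 2.44 in WT and 1.72 and 2.01 in DKO.

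In DKO cells the d2 differences were spread to both sides. The median was -0.04 over the clustered genes and -0.04 over the variants, against 0.03 over all genes. A 2-fold difference was reached by 3 of 48 genes (H4f16, H2al1m and H2aw), all higher at d2, against 0.888% of all genes. H2aw passed only narrowly and lay at 0.95 to 0.98 under the 3 other scalings, which left 2 of 48, and H4f16 lay below 2-fold with its probe sets averaged. At 1.5-fold the count was 5 of 48 (10.4%), 3 higher and 2 lower, against 5.53% of all genes. These differences use the DKO d2 array, which stood apart, and its part in them was not tested. The differences in the 2 genotypes share no array. Across the 48 genes they gave Pearson's r of -0.07 and Spearman's rho of -0.05, against 0.03 and 0.02 across all genes, where genes of 1 array share probes and processing. In both genotypes 15 of 48 genes (31.3%) read lower at d2, against 21.9% of all genes, and 8 (16.7%) read higher, against 29.0% of all genes.

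**Figure D2:**
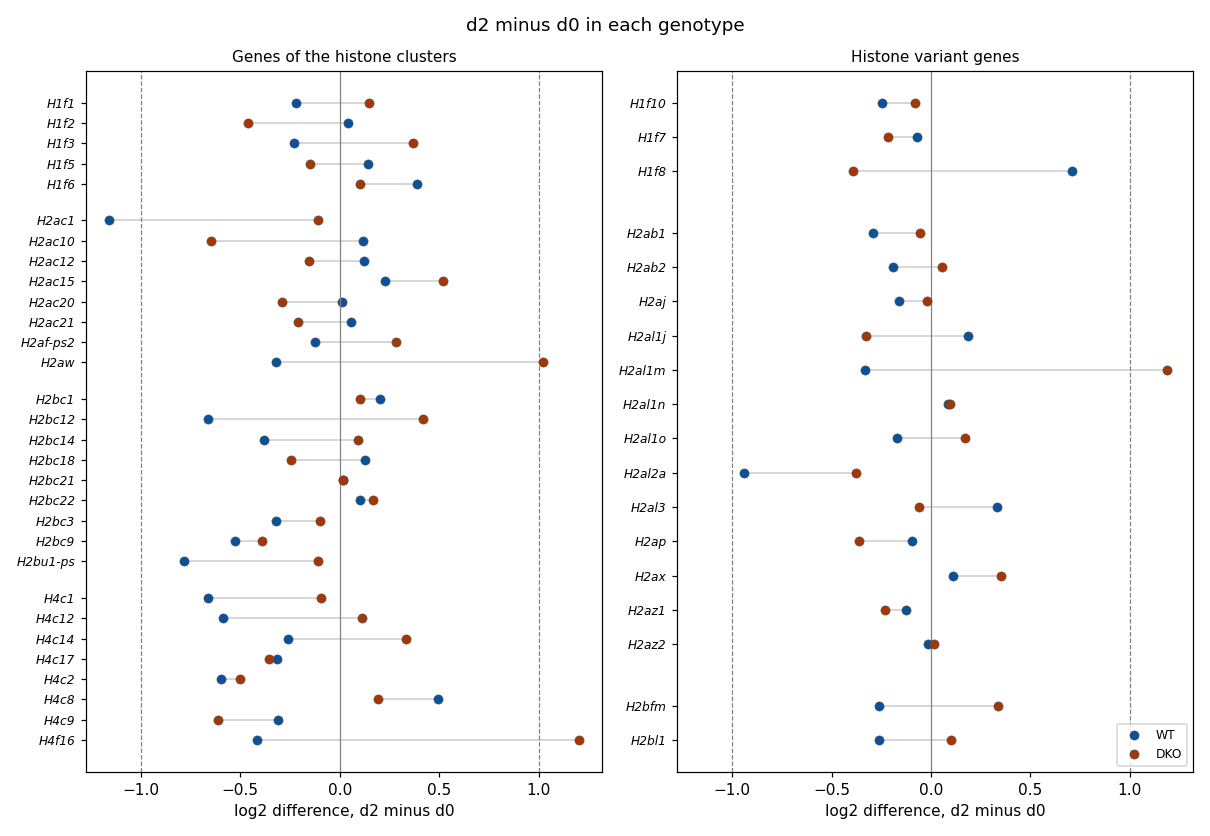
Log2 difference, d2 minus d0 (horizontal axis), of each histone gene in WT and in DKO cells, with clustered genes on the left, variants on the right and dashed lines at 2-fold. In WT 7 of 8 H4 genes lie left of 0, and in DKO H4f16, H2aw and H2al1m lie beyond 2-fold on the right.

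Between genotypes at d0, 0 of 48 genes differed 2-fold, against 0.32% of all genes. The DKO and WT d2 comparisons share their d0 arrays with this one, so each is read by its own values. At 1.5-fold 6 of 48 genes differed (12.5%), against 3.06% of all genes. H1f8 was higher in DKO by 0.82, and H2ac1 (-0.81), H4f16 (-0.79), H2al2a (-0.68), H2bc12 (-0.64) and H2bu1-ps (-0.59) were lower. The second H4f16 probe set was higher in DKO by 0.21, and the mean of both was -0.29, short of 1.5-fold. The median was -0.03 over the clustered genes and -0.09 over the variants.

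At d2, H2aw was higher in DKO than in WT by 1.5, ranking 16th from the highest of 22180 genes, and H2al1m was higher by 1.10. These were the 2 of 48 genes past 2-fold, against 0.87% of all genes. At 1.5-fold 4 of 48 genes (8.33%), all higher in DKO, stood against 5.56% of all genes, with H4f16 (0.83) and H4c12 (0.66) added. The mean of both H4f16 probe sets was 0.52, short of 1.5-fold. The largest negative differences were those of H2ac10 (-0.49) and H4c8 (-0.44). The clustered median was 0.13 and the variant median was -0.00, against 0.04 over all genes. Of the 30 clustered genes 21 were above 0 (70%), against 55.6% of all genes. Under the 3 other scalings the clustered median was 0.08 to 0.09, with 19 to 20 of 30 above 0. By family, the clustered medians were 0.30 for H4, 0.14 for H2B, 0.11 for H2A and -0.20 for H1.

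**Figure D3:**
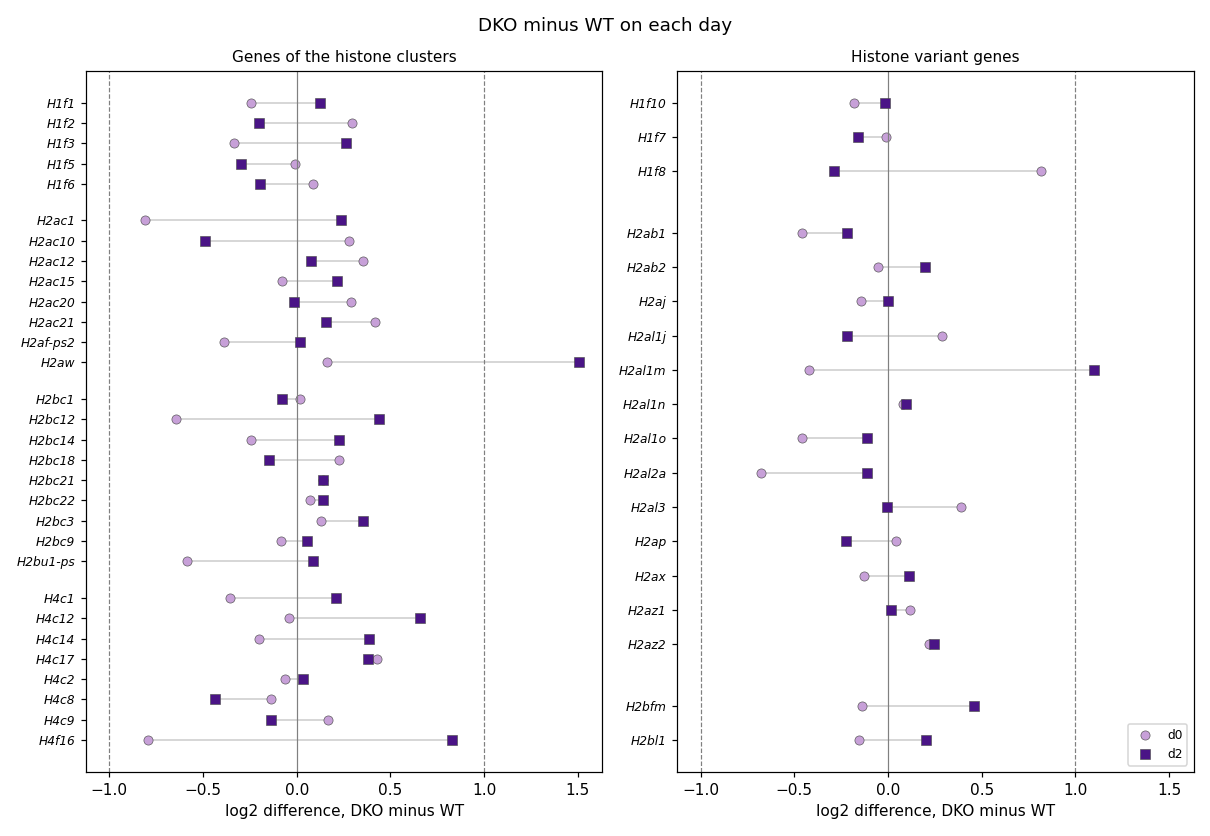
Log2 difference, DKO minus WT (horizontal axis), of each histone gene at d0 (circles) and d2 (squares), with dashed lines at 2-fold. No circle passes 2-fold, and the squares of H2aw and H2al1m do.

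The DKO d2 change minus the WT d2 change, which uses all 4 arrays, was past 2-fold for 6 of 48 genes, against 2.21% of all genes. H4f16 (1.62), H2al1m (1.52), H2aw (1.34), H2bc12 (1.08) and H2ac1 (1.05) were above 0, and H1f8 (-1.10) was below. H2ac1 lay at 0.95 under quantile normalization, which left 5 of 48. H4f16 ranked 27th and H2al1m 42nd from the highest. WT d0 was the array farthest from the other 3 for H2ac1 and H1f8, and DKO d2 was for H2aw and H2al1m. For H4f16 the value was -0.00 in the second probe set and 0.81 with both averaged. At 1.5-fold 12 of 48 genes (25%) stood against 12.1% of all genes. The median was 0.12 over the clustered genes, 0.15 over the variants and 0.03 over all genes.

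The spread of the differences was wider among histone genes than among all genes in 4 of the 5 comparisons. The robust SD (the median absolute deviation from the median, scaled to a normal SD) was 0.33 against 0.23 in WT and 0.31 against 0.26 in DKO. It was 0.30 against 0.23 between genotypes at d0 and 0.61 against 0.34 for the difference of the d2 changes. Between genotypes at d2 both were 0.26. Whether low signal or shared probes widen it was not tested.

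**Figure D4:**
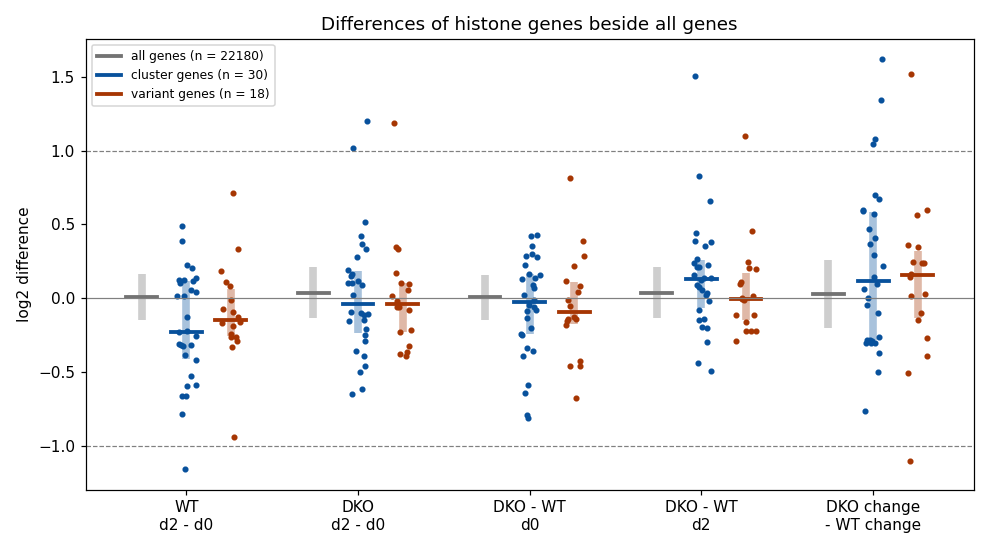
Distribution of the log2 differences of the histone genes beside all 22180 genes in each of the 5 comparisons. In WT the clustered median lies at -0.23 and that of all genes at 0.01, and the difference of the d2 changes has the widest spread, 0.61 for histone genes against 0.34.

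An additive limma model over all genes, which leaves 1 residual degree of freedom, tested a d2 difference common to both genotypes and a genotype difference common to both days. Its only residual is the difference between the genotypes in the d2 change, so a true difference of that kind adds to its error. The lack of a call therefore does not show that a gene is unchanged. At an adjusted p of 0.05 it called no gene for either term (0% of all genes), and the lowest adjusted p of a histone gene was 0.910 for the d2 term and 0.933 for the genotype term (0.606 to 0.926 and 0.681 to 0.947 under the alternatives). Unadjusted p was under 0.05 for 6 of 48 histone genes (4.77% of all genes) in the d2 difference and 2 of 48 (4.45% of all genes) in the genotype difference. Lower at d2 were H4c2 (-0.55, SE 0.14), H2bc9 (-0.46, SE 0.12), H4c9 (-0.46, SE 0.16), H2al2a (-0.66, SE 0.21) and H4c17 (-0.34, SE 0.13), all at an adjusted p of 0.910 in limma. H2ac15 was higher at d2 by 0.37 (SE 0.13), with the same adjusted p. H2aw was higher in DKO by 0.83 (SE 0.31) and H4c17 by 0.40 (SE 0.13), both at an adjusted p of 0.933 in limma.

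Genes that serve histone supply did not reach 2-fold in any difference between single arrays. For histone mRNA transcription and processing, 22 of 24 listed genes were measured, with median d2 differences of 0.00 in WT and 0.03 in DKO. Slbp, whose product binds the stem-loop, read 0.65 and 0.42 in WT and 0.55 and 0.37 in DKO, lower on both d2 arrays. Npat read 0.20 and 0.21 in WT and 0.21 and 0.31 in DKO. Casp8ap2 (FLASH), needed for histone pre-mRNA cleavage, read 0.44 and 0.66 in WT and 0.64 and 0.58 in DKO. Of the histone chaperones 30 of 32 were measured, with median d2 differences of 0.06 in WT and 0.07 in DKO. Chaf1a, of the replication chaperone CAF-1, read 0.05 on DKO d2 and 0.48 to 0.69 on the other arrays. Daxx, an H3.3 chaperone, read 0.68 on WT d0 and 0.19 to 0.41 on the others, and its partner Atrx read 0.47 on DKO d2 and -0.01 to 0.14 on the others. Of the S phase genes 31 of 34 were measured, with median d2 differences of -0.06 in WT and -0.04 in DKO. Pcna read 0.16 and 0.20 in WT and 0.20 and 0.25 in DKO. Tyms alone in these 3 lists passed 2-fold in the difference of the d2 changes (1.38), reading 0.90 and 0.12 in WT and 0.05 and 0.65 in DKO.

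Probe sets that list several symbols name no single gene and were kept apart. There were 59 with at least 1 histone gene, of which 5 repeated the values of another, leaving 54. They list 73 histone genes, 53 of which have no probe set of their own. The 19 probe sets that list H3 genes are the only view of that family, and 7 of them also list genes other than histones. The WT median was -0.01 over the 4 that list 4 H3 genes, 0.18 over the 8 that list 8 H3 genes and 0.12 over the 7 mixed ones. Over all of them, in WT 14 of 19 read higher at d2 and in DKO 13 of 19, with medians of 0.09 in each, and 0 of 19 reached 2-fold in any comparison. The 5 shared H4 probe sets did not repeat the WT pattern of the single-gene ones: 4 of 5 read higher at d2, with a median of 0.19. Of the 54, past 2-fold were 3 in WT and 3 in DKO, all lower at d2, against 0.606% and 1.32% of the 1814 probe sets with several symbols. Between genotypes, 1 differed 2-fold at d0 and 2 at d2, all lower in DKO, against 0.496% and 1.21%. In the difference of the d2 changes 3 did, 1 above and 2 below 0, against 2.81%.

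Those counts came from 4 probe sets. An H2A.L probe set that lists 7 genes read 8.15 and 8.52 in WT, 8.53 on DKO d0 and 1.27 on DKO d2. Its DKO difference of -7.26 ranked 3rd from the lowest of all 41345 probe sets and rests on the DKO d2 array. Another H2A.L probe set, also of 7 genes, read 2.70 and 1.64 in WT and 2.01 and 0.91 in DKO, lower at d2 in both genotypes. An H2B probe set of 4 genes read 5.06 and 3.98 in WT and 4.11 and 1.28 in DKO, again lower at d2 in both and lowest on DKO d2. An H4 probe set of 13 genes read 1.18 on WT d0 and -0.11 to 0.11 on the other 3 arrays. The single-gene H2A.L member H2al1m, by contrast, was highest on DKO d2.

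**Figure D5:**
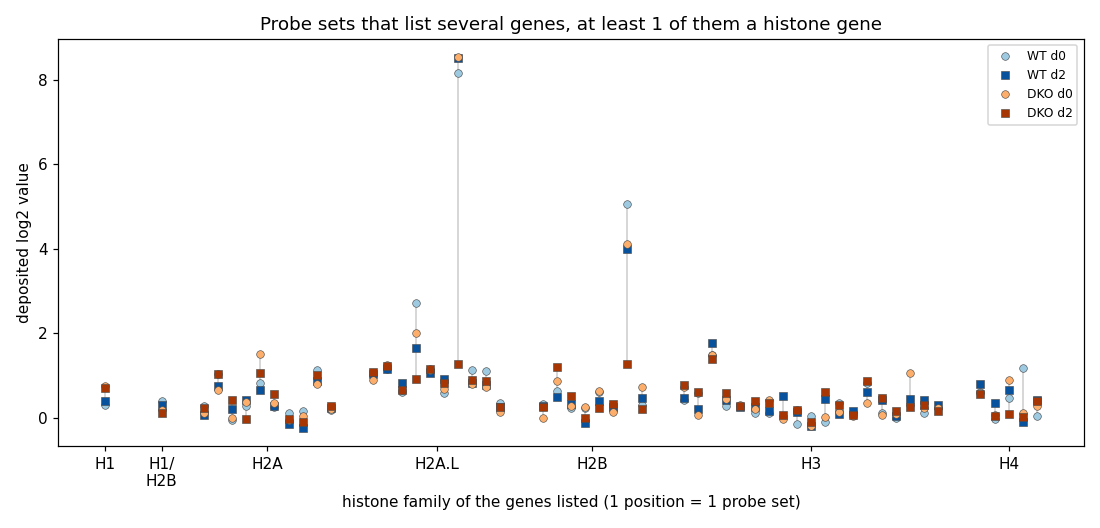
Deposited log2 value (vertical axis) of the 54 probe sets that list several genes with at least 1 histone gene, by histone family, 1 position per probe set and 1 point per array. An H2A.L probe set lies above 8 on 3 arrays and at 1.27 on DKO d2, an H2B probe set lies between 5.06 on WT d0 and 1.28 on DKO d2, and the H3 probe sets stay below 1.8.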

How the data were processed

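Total RNA of E14tg2a cells (PureLink kit) was labelled with biotin by a whole-transcript kit and read on GeneAtlas arrays of 1 strip, per the labels' protocols. The deposited table gives log2 values; the submitters' processing notes name RMA without a version. RMA values are rarely this low: most here are under 1. Neither the log base nor the set of arrays normalized together is stated in the sources used here. No further scaling was applied.

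Genes were named from the 23521 of 41345 probe sets with 1 symbol, updated through RefSeq (GRCm38.p6), which was used for names and promoters alone; each gene took its probe set with the highest mean. No filter on low values was applied, since a dim gene would pass one only through the array where it is high. All 48 histone genes matched the RefSeq table. Clustered genes are those whose symbol or older symbol begins with Hist1h to Hist4h.

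Differences between single arrays were computed and called at a log2 difference of at least 1. The additive model of genotype and day was fitted with limma 3.58.1 in R 4.3.3 (trend, with 1 residual and 4.81 prior degrees of freedom). It was fitted over 22180 genes with Benjamini-Hochberg adjustment. A trial on simulated data added d2 effects of at least 2-fold to independent noise, with no genotype difference in the d2 change. It therefore does not show how the model behaves on these arrays. Other steps used Python 3.11.15, numpy 2.4.6, pandas 2.3.3 and matplotlib 3.10.9. Alternatives were 3 scalings (median, quantile and cyclic loess), filters on low values, another rule for probe sets, a 1.5-fold threshold, and other memberships.

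Genes named were the design genes, every member past 2-fold, the extremes of each family, named variants and preset genes of the supply lists. The remaining members are described to give each its values. The members and lists were chosen with earlier results of these data known. Nothing in the labels says that samples came from separate cultures.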

Additional observations from a re-analysis of the deposited data

Results flagged for a closer look

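For 5 of 48 histone genes the d2 difference had opposite signs in the 2 genotypes, and the DKO d2 change minus the WT d2 change was past 2-fold. Of all genes, 51.0% had the same sign in both genotypes and 2.21% were past 2-fold in this difference. The share of all genes that meet both conditions was not computed, and a large difference of the changes makes opposite signs likely. The value was 1.34 for H2aw, 1.08 for H2bc12, 1.62 for H4f16, 1.52 for H2al1m and -1.10 for H1f8. For H4f16 this holds for 1 of its 2 probe sets: the other read higher at d2 by 0.22 in both genotypes, and averaging them gave 0.81, below 2-fold. Each rests on 1 array per group, and the difference between genotypes was not tested. Groups of 1 array allow no check for an outlying sample.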

How the results depend on the processing

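Of 133 alternatives to the counts and medians, 116 left the value within its limits and 17 moved it. The limits were a ratio of 1.5 between counts and a log2 difference of 0.1 between medians. A count in DKO that fell from 3 to 2 was thus taken as unmoved. Of the 116, 18 were limma counts that stayed at 0, where limma called no gene of any kind, so they carry little weight. Of 68 alternatives for single genes, 63 left the value within 0.1, 5 moved it and 0 turned its sign. For single genes part of this tally was fixed in advance. The filters leave the value of a gene as it is, and averaging changes only genes with several probe sets. These genes were also chosen for a difference of at least 1, so a small rescaling could hardly turn a sign. Lowering the threshold to 1.5-fold changed the count of histone genes from 1 to 8 in WT, 3 to 5 in DKO, 0 to 6 between genotypes at d0, 2 to 4 at d2 and 6 to 12 for the difference of the d2 changes. Adding the shared probe sets gave 4 in WT, 6 in DKO, 1 at d0, 4 at d2 and 9 for the difference of the d2 changes. It also gave a clustered WT median of -0.045 in place of -0.23. Leaving out the 2 pseudogenes and the clustered testis genes H1f6, H2ac1 and H2bc1 (not the testis variants) gave 0 in WT. A filter on the mean at the 60th percentile gave a clustered median of -0.35 in WT, -0.14 between genotypes at d0 and 0.44 for the difference of the d2 changes, a count of 1 at d2 and a variant median of -0.11 at d2. A filter at the 40th percentile gave 0.22 for the clustered median of the difference. The cause was not tested. No paired analysis was possible because each group has 1 array. No array could be left out of a comparison of single arrays.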
